A study of Mus musculus with 3 samples.

Results

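Solute carriers are membrane proteins that move nutrients, ions, metals and vitamins across the plasma membrane and the membranes of organelles, and their messages were followed here in RNA recovered with ezrin. The group comprised 127 genes outside the mitochondrial Slc25 family, chosen by symbol and by summed counts: a symbol of the form Slc, number, letter, number, and at least 50 counts over all libraries together. Of 315 symbols of that form, 103 had no count and 85 had 1 to 49 counts. All 127 genes passed edgeR's default filter on low counts and were among the 12478 genes tested. The genes nearest the minimum were Slc43a2 with 50 counts, Slc9a2 with 51, Slc46a1 with 52 and Slc6a15 with 54, and just outside it were Slc16a8 with 47, Slc16a5 with 44 and Slc22a14 and Slc7a3 with 40 each. Each gene was placed in 1 substrate group from textbook knowledge, so a gene with several substrates stands in 1 group only. Several genes, such as Slc10a3, Slc35e1 and Slc45a4, have no settled substrate.

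RNA immunoprecipitation sequencing (RIP-seq) was performed on K7M2 cells, a metastatic mouse osteosarcoma line, in which Ezrin had been disrupted by CRISPR/Cas9 (Ezrin -/-) and T567A ezrin stably transfected; the resulting line was named COL3A. The ezrin IP group had 2 libraries made with an antibody to ezrin, and the IgG IP group had 1 library made with normal mouse IgG. Cells of both groups carried this same genotype and received no treatment, so the comparison is between antibodies with no wild-type cells among the 3 libraries. The study asked which RNAs the closed form of ezrin binds.

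Ezrin links membrane proteins to cortical actin, and replacing its regulatory threonine with alanine keeps it from being opened by phosphorylation at that site. Some solute carriers are known to be linked to ezrin family proteins through the scaffold NHERF1 (Slc9a3r1). Their messages are translated at the endoplasmic reticulum, and many carriers work as pairs, such as the CD98 heavy chain with an Slc7 light chain.

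Counts totalled 19676595 and 16196329 in ezrin IP libraries 1 and 2 and 10124580 in the IgG IP library. The solute carriers held 0.593% (0.589 to 0.596) and 0.579% (0.576 to 0.583) of all counts in ezrin IP and 0.643% (0.638 to 0.648) in IgG IP, with exact Clopper-Pearson 95% intervals that cover counting error only. Levels are given as CPM, counts scaled to a common library size with edgeR's TMM factors, and a gene was called where the Benjamini-Hochberg adjusted p of edgeR's quasi-likelihood test over all 12478 genes was under 0.05. Separate cultures for the ezrin IP libraries are not recorded in the labels, so p-values measure only the spread between these libraries, which may be technical. That spread rests on 1 residual degree of freedom pooled over genes, and the single IgG IP library was assumed to vary like the others. Of 10 osteoblast markers, 6 could be tested; Sp7, Bglap, Ibsp and Pth1r had 0 to 9 counts in any library, and the list summed to 4623 and 3832 CPM (unscaled) in ezrin IP against 2089 CPM in IgG IP. Most of that sum was Col1a2, and of the 6 tested markers 3 were higher (Col1a2, Spp1 and Sparc) and 2 lower (Runx2 and Alpl). The part of these markers in the results was not tested. The 5 epithelial markers summed to 0.254 and 0.247 CPM in ezrin IP against 0.296 CPM in IgG IP. The macrophage markers Ptprc, Adgre1 and Fcgr3 had 0 counts in every library, although Csf1r had 19345 and 14596 counts in ezrin IP and 11804 in IgG IP.

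Messages of solute carriers were lower in ezrin IP than in IgG IP more often than they were higher. Of 127 solute carriers, 39 were called lower (30.7%), against a background of 17.4% of all genes tested, and 3 were called higher (2.36%), against a background of 19.0%. The 3 higher ones were Slc3a2, Slc39a7 and Slc31a2. The median log2 fold of the solute carriers was −0.45, against −0.02 for all genes tested, and 97 of the 127 lay below 0. Most differences were modest: 14 of the lower calls were at least 2-fold, and 1 of the higher calls was.

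Both ezrin IP libraries lay below IgG IP for 90 of the 127 solute carriers, against 44.3% of all genes tested, and both lay above it for 24, against 42.6% of all genes tested. The IgG IP value stood between them for the other 13. Median log2 ratios to IgG IP, with 1 CPM added to both sides, were −0.36 in ezrin IP library 1 and −0.41 in ezrin IP library 2; both ratios share the 1 IgG IP library. The ezrin IP libraries differed from each other by a median of 1.16-fold per gene, and by more than 1.5-fold for 11 genes. Counts of calls depended on the tool and the scaling. DESeq2 called 2 higher and 19 lower of the 127, against 14.0% and 8.82% of all genes. Limma on log2(RPKM + 0.1) called 7 higher and 7 lower, against 27.0% and 6.86% of all genes. Its medians were −0.062 for solute carriers and 0.34 for all genes tested. With RPKM + 1 the split was 11 higher and 4 lower, against 26.8% and 4.42% of all genes. The solute carrier median was then −0.031 and the median of all genes 0.22. In both RPKM settings the share of solute carriers called lower was below that of all genes. The 7 lower calls with RPKM + 0.1 were 3 of the vitamin and nucleoside group, 2 of the Slc35 family and 1 metal carrier. The other was 1 gene of the organic and fatty acid group, with 0 in the other groups. Relative to all genes, the solute carrier median lay 0.40 lower with RPKM + 0.1, 0.25 lower with RPKM + 1 and 0.43 lower in edgeR's test.

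**Figure D1:**
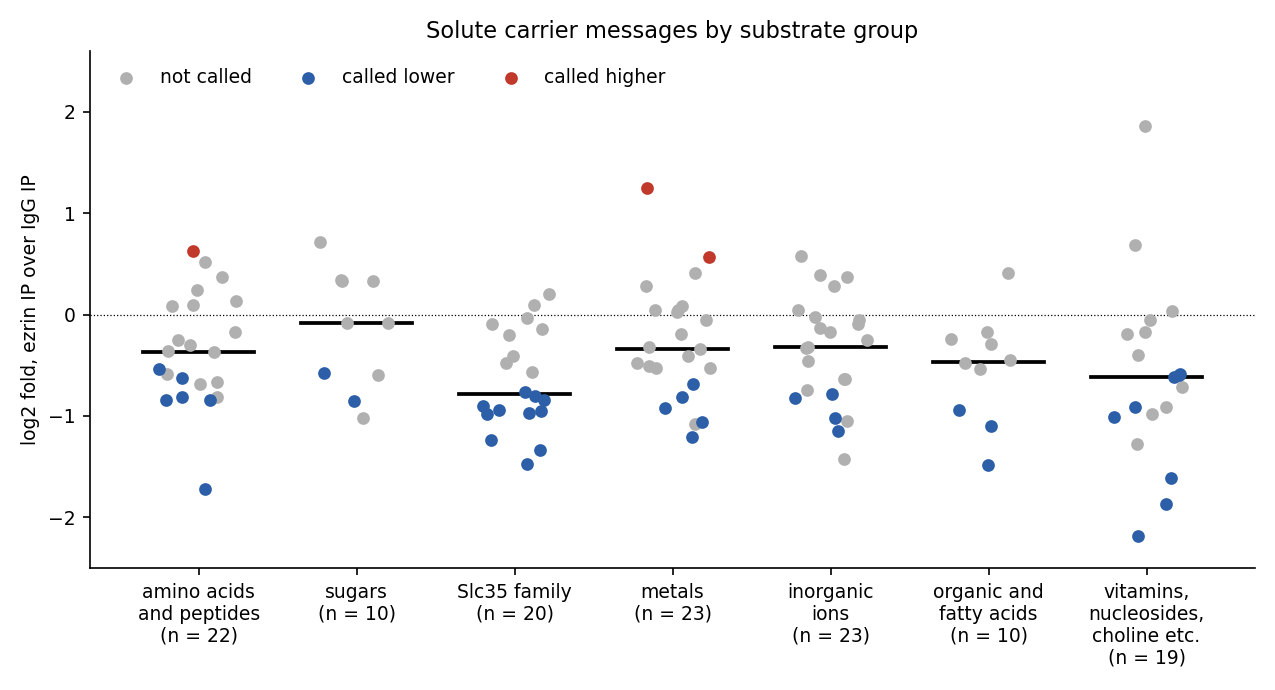
Log2 fold, ezrin IP over IgG IP, of each of the 127 solute carriers by substrate group; each point is 1 gene, colours mark edgeR calls, and black bars are group medians. The medians run from −0.78 in the Slc35 family to −0.09 for sugar carriers, and 3 points are called higher. With RPKM + 0.1 the medians for amino acid, metal, ion and sugar carriers lie above 0 and below the median of all genes tested, 0.34.

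Lower calls by edgeR occurred at every level of expression. All genes tested were cut into 3 equal classes by mean level, at 11.5 and 52.0 CPM. In the lowest class 12 of 41 solute carriers were lower (29.3%), against 18.7% of all genes in that class. In the middle class 18 of 56 were lower (32.1%, against 17.4%), and in the highest class 9 of 30 (30.0%, against 16.2%). DESeq2 called 2 of 41, 11 of 56 and 6 of 30 solute carriers lower in these classes. Among all genes it called 204 of 4159, 358 of 4159 and 539 of 4160 lower. Its share among solute carriers was near that of all genes in the lowest class and above it in the middle and highest classes. Higher calls among all genes became more frequent with level, at 5.82%, 18.8% and 32.5% across the classes. Among solute carriers the higher calls numbered 1, 0 and 2 in the same classes; in the middle class edgeR also had 0 at an unadjusted p under 0.05, and DESeq2 0. Across the 127 genes, which share the same 3 libraries, the Spearman correlation of log2 fold with level was 0.28 for solute carriers and 0.26 for all genes tested.

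**Figure D2:**
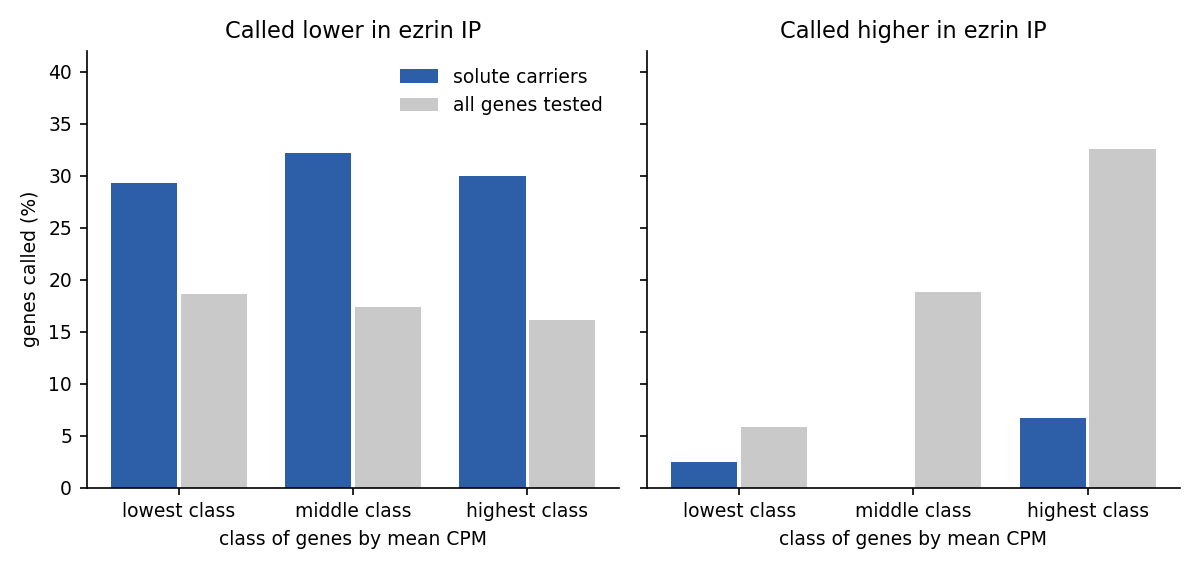
Share of genes called lower (left) and higher (right) in ezrin IP, in percent, by class of mean CPM, for the solute carriers (blue) and all genes tested (grey). The blue bars of lower calls stand at 29.3%, 32.1% and 30.0%, and the grey bars of higher calls climb to 32.5%.

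Among carriers of amino acids and peptides, the shared CD98 heavy chain was higher in ezrin IP, and 2 light chains that pair with it, Slc7a5 and Slc7a11, were lower in edgeR's test, though each of these calls was lost in several alternatives. Of 22 genes in this group, 1 was higher (4.55%, against 19.0% of all genes tested) and 6 were lower (27.3%, against 17.4%). The group median log2 fold was −0.37. With RPKM + 0.1 it was 0.020, against 0.34 for all genes tested. Slc3a2 (chromosome 19, 8706882 to 8723369, GRCm38.p6) encodes the CD98 heavy chain, which brings several Slc7 light chains to the plasma membrane. It had 436 and 402 CPM in the ezrin IP libraries, against 271 CPM in IgG IP. Both ezrin IP values were above IgG IP, by 1.55-fold (log2 fold 0.63, SE 0.23, edgeR adjusted p = 0.0209). That call did not hold with cyclic loess (log2 fold 0.22), with upper quartile scaling or among genes that averaged 10 CPM or more, where the log2 folds were 0.53 and 0.52.

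Slc7a5 (chromosome 8, 121881146 to 121907686) encodes LAT1, the light chain for leucine and other large neutral amino acids. It stood at 204 and 193 CPM in ezrin IP, against 288 CPM in IgG IP. The ezrin IP libraries were both below IgG IP (log2 fold −0.54, SE 0.23, edgeR adjusted p = 0.0491), close to the threshold. The call was kept in 3 of 9 alternatives, with adjusted p from 0.00114 to 0.658 over them, and was lost with DESeq2 (adjusted p = 0.075) and both RPKM settings among others. Slc7a11 (chromosome 3, 50364936 to 50499087) encodes xCT, the light chain that takes up cystine in exchange for glutamate and so feeds glutathione synthesis. Its level was 21.2 and 28.6 CPM in ezrin IP, against 38.5 CPM in IgG IP. Here too both ezrin IP libraries were lower (log2 fold −0.63, SE 0.25, edgeR adjusted p = 0.0356), and the call was lost with DESeq2 (adjusted p = 0.207) and with library size as the only scaling (adjusted p = 0.102). Slc7a6, another CD98 light chain, had a log2 fold of 0.14 and was not called.

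The other lower genes of the amino acid group were Slc43a2, Slc15a4, Slc6a9 and Slc6a8. Slc6a9, the glycine transporter GlyT1, had 53.5 and 51.3 CPM in ezrin IP and 93.7 CPM in IgG IP (log2 fold −0.84, edgeR adjusted p = 0.0022). Slc6a8, the creatine transporter, had 64.4 and 56.3 CPM in ezrin IP and 106 CPM in IgG IP, a log2 fold of −0.81. Slc15a4, a histidine and peptide transporter of lysosomes, had a log2 fold of −0.84. Slc43a2, which encodes the amino acid carrier LAT4, had the lowest log2 fold of the group (−1.72) but only 19 and 8 counts in ezrin IP and 23 in IgG IP. DESeq2 called neither Slc15a4 (adjusted p = 0.254) nor Slc43a2 (adjusted p = 0.337).

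Among abundant members of the amino acid group without a call, Slc1a5 and Slc38a2 lay above IgG IP in both ezrin IP libraries, and Slc6a6 and Slc7a1 lay below it in both. Slc1a5, the glutamine transporter ASCT2, had 101 and 82.1 CPM in ezrin IP, against 64.2 CPM in IgG IP (log2 fold 0.51, edgeR adjusted p = 0.0891). Both of its ezrin IP values were above IgG IP, and it passed with library size as the only scaling (adjusted p = 0.0346). Slc38a2, the amino acid transporter SNAT2, was at 365 and 387 CPM in ezrin IP and 354 CPM in IgG IP. Slc6a6, the taurine transporter, and Slc7a1, the arginine and lysine transporter CAT1, had log2 folds of −0.17 and −0.37; neither was called, although Slc7a1 passed on the lower side with cyclic loess (adjusted p = 0.019).

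**Figure D3:**
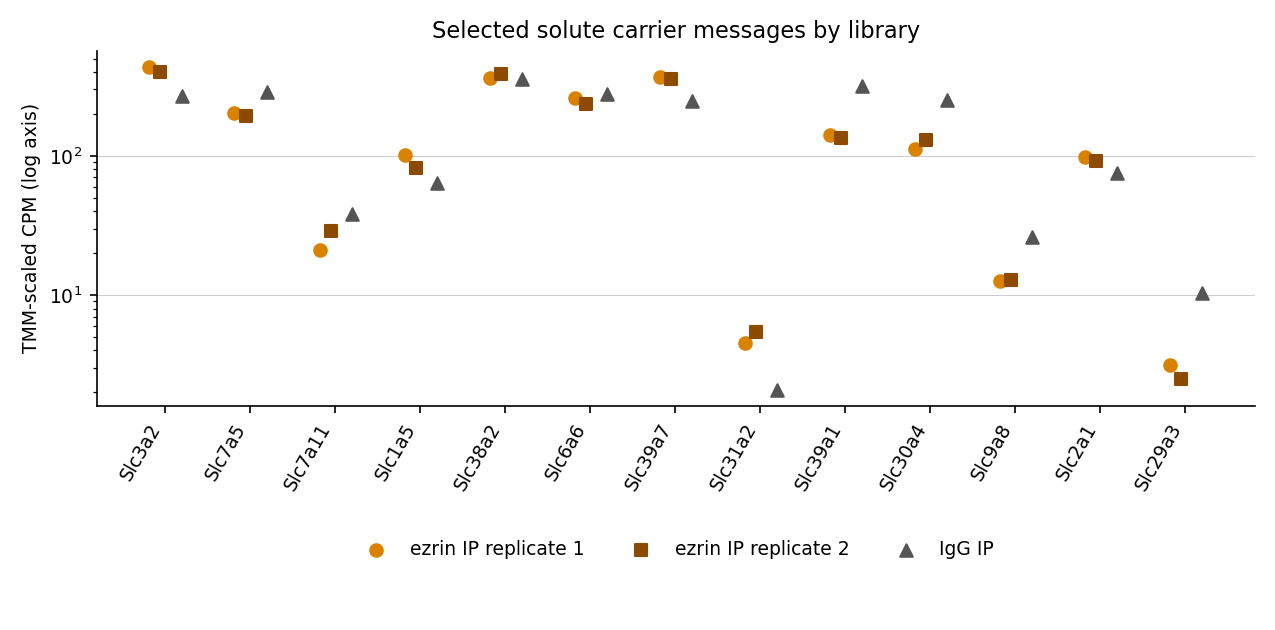
TMM-scaled CPM on a log axis of 13 solute carrier messages in ezrin IP libraries 1 (circles) and 2 (squares) and in the IgG IP library (triangles). Triangles lie below the ezrin IP points for Slc3a2, Slc39a7 and Slc31a2, and above them for Slc7a5, Slc7a11, Slc39a1, Slc30a4, Slc9a8 and Slc29a3.

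Slc3a2 and Slc7a11 encode the partners of 1 cystine-glutamate exchanger and were called in opposite directions by edgeR, so the sequence before the annotated start of each gene is shown. Amino acid shortage is known to induce both genes through the transcription factor Atf4, which binds elements of the form TGATGNAA. The windows are the 250 bases before the RefSeq start in GRCm38.p6, read 5′ to 3′ on the minus strand, at chr3:50443614-50443863 for Slc7a11 and chr19:8713898-8714147 for Slc3a2. Capitals mark matches to TGATGNAA or, on the other strand, TTNCATCA.
Slc7a11: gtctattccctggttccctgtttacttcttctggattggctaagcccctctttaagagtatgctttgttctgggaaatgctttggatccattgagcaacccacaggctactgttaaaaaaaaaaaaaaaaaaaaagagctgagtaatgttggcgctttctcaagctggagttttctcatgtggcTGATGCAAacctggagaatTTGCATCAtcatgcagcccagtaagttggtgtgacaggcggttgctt
Slc3a2: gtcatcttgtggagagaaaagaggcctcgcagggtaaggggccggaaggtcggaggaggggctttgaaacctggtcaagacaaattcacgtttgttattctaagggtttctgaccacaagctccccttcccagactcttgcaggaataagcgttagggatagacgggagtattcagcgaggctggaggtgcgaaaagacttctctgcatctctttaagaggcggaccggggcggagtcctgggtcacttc
The Slc7a11 window held 2 matches, 1 on each strand, and the Slc3a2 window held 0. Matches on either strand occurred in 1134 of 32851 windows of this length (3.45%), in 4 of the 99 solute carriers with a window (4.04%) and in 1 of 17 in the amino acid group, Slc7a11. The share over all windows counts windows, and the solute carrier shares count genes with a match in any of their windows. A match describes letters only, RIP-seq did not measure promoters, and both genes extend further upstream in the annotation than these starts.

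Metal carriers held 2 of the 3 higher calls along with 5 lower ones. These were 8.70% and 21.7% of the group, against 19.0% and 17.4% of all genes tested. Of 23 genes for zinc, copper, iron, magnesium and heme, the median log2 fold was −0.34. With RPKM + 0.1 it was 0.042, against 0.34 for all genes tested. The zinc importers of the Slc39 family split in both directions. Slc39a7 (chromosome 17, 34028266 to 34031690) encodes ZIP7, which releases zinc from the endoplasmic reticulum and Golgi. It had 371 and 358 CPM in ezrin IP, against 246 CPM in IgG IP. Both ezrin IP libraries were above IgG IP, by 1.48-fold (log2 fold 0.57, SE 0.23, edgeR adjusted p = 0.0398), and the call did not hold with cyclic loess (log2 fold 0.18), upper quartile scaling (adjusted p = 0.0904) or at a mean of 10 CPM or more (adjusted p = 0.0871). Slc31a2 (chromosome 4, 62280393 to 62298412) encodes the copper transporter CTR2 of endosomes and lysosomes. It had 91 counts in each ezrin IP library and 20 counts in IgG IP, which is 4.53 and 5.43 CPM against 2.09 CPM. The ezrin IP values were 2.37-fold higher (log2 fold 1.25, SE 0.48, edgeR adjusted p = 0.0279), and DESeq2 did not call it (adjusted p = 0.231).

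Slc39a1 moved the other way from Slc39a7. Slc39a1 (chromosome 3, 90248190 to 90253613) encodes ZIP1, a zinc importer of the plasma membrane, and had 141 and 133 CPM in ezrin IP, against 317 CPM in IgG IP. Its ezrin IP level was 2.30-fold lower, with both libraries below IgG IP (log2 fold −1.20, SE 0.23, edgeR adjusted p = 1.6e-06), and the gene was called lower in every alternative that gave a test. Slc30a4, a zinc exporter into vesicles, was at 112 and 131 CPM in ezrin IP and 254 CPM in IgG IP (log2 fold −1.06, edgeR adjusted p = 3.42e-05). Slc30a7, which loads zinc into the secretory pathway, was lower (log2 fold −0.92), and the call was kept in all 7 count-based alternatives. The importers Slc39a8 (−0.81) and Slc39a10 (−0.68) were lower in edgeR's test but kept their calls in only 2 of 6 and 2 of 7 of them.

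By direction of zinc transport, 2 of 6 Slc30 exporters were lower (33.3%), with a median log2 fold of −0.25. Of 10 Slc39 importers, 3 were lower (30.0%) and 1 higher (10.0%), with a median of −0.26. Among all genes tested 17.4% were lower and 19.0% higher. With RPKM + 0.1 the medians of these exporters and importers were 0.13 and 0.13, against 0.34 for all genes tested. The plasma membrane zinc exporter Slc30a1 (−0.53, edgeR adjusted p = 0.0983), the copper importer Slc31a1 (−0.51, adjusted p = 0.0951) and the heme transporter Slc48a1 (−0.48, adjusted p = 0.0791) were not called. These 3 genes passed on the lower side with upper quartile scaling, with adjusted p of 0.0463, 0.0432 and 0.0303. The iron exporter Slc40a1 had 0 counts in all 3 libraries.

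On the deposited RPKM scale, which divides by gene length and allows genes to be set beside each other within a library, Slc39a7 and Slc3a2 stood highest among solute carriers in ezrin IP. Slc39a7 had 120 and 119 RPKM in ezrin IP and 61.7 RPKM in IgG IP. Slc3a2 had 104 and 98.2 RPKM in ezrin IP and 49.8 RPKM in IgG IP. In the IgG IP library the order was different: Slc39a1 led with 86.9 RPKM, against 50.2 and 48.6 RPKM in ezrin IP, followed by Slc48a1 with 71.5 RPKM.

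The Slc35 family, whose best known members carry nucleotide sugars into the Golgi and endoplasmic reticulum for glycosylation, had the lowest median of the substrate groups. Of its 20 genes, 11 were lower in ezrin IP (55.0%, against 17.4% of all genes tested) and the median log2 fold was −0.78. Among the lower genes, Slc35a4, Slc35a5, Slc35e1, Slc35e2, Slc35e3 and Slc35g1 have no settled substrate. No Slc35 gene was called higher by edgeR, against 19.0% of all genes tested, also at an unadjusted p under 0.05 (0). DESeq2 called 0 higher and 8 lower, against 14.0% and 8.82% of all genes. Limma on RPKM + 0.1 called 0 higher and 2 lower, against 27.0% and 6.86% of all genes. The Slc35 median was then −0.39, against 0.34 for all genes tested. Slc35c1 (chromosome 2, 92452764 to 92460518), the GDP-fucose transporter needed for fucosylated glycans, had 11.5 and 10.6 CPM in ezrin IP, against 30.6 CPM in IgG IP. It was 2.77-fold lower with both ezrin IP libraries below IgG IP (log2 fold −1.47, SE 0.26, edgeR adjusted p = 2.77e-07). Slc35d1, which carries UDP-glucuronic acid and UDP-N-acetylgalactosamine for chondroitin chains, had 13.9 and 18.2 CPM in ezrin IP and 40.4 CPM in IgG IP (log2 fold −1.34, edgeR adjusted p = 1.53e-06). Slc35a3, the UDP-N-acetylglucosamine transporter, had 29.8 and 38.3 CPM in ezrin IP and 80.5 CPM in IgG IP (log2 fold −1.24, edgeR adjusted p = 4.1e-06).

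The transporters of other sugar donors differed among themselves. Slc35b4, which carries UDP-xylose, had a log2 fold of −0.95 and was lower. Slc35a2, the UDP-galactose transporter, had 19.8 and 19.1 CPM in ezrin IP and 16.9 CPM in IgG IP, and Slc35a1, the CMP-sialic acid transporter, had 9.87 and 9.48 CPM in ezrin IP and 9.93 CPM in IgG IP. Neither was called, with log2 folds of 0.20 and −0.04. Slc35b2, 1 of the carriers of the sulfate donor PAPS, had a log2 fold of −0.57 (edgeR adjusted p = 0.0565), and Slc35b3, the other, −0.09. Slc35b1, which brings ATP into the endoplasmic reticulum, had 0.09.

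By subfamily letter, 7 of 13 in a to d were lower (53.8%) with a median of −0.77. In e to g 4 of 7 were lower (57.1%) with a median of −0.80, against 17.4% lower among all genes tested. DESeq2 called 6 and 2 lower, against 8.82% of all genes, and limma on RPKM + 0.1 called 2 and 0, against 6.86%. The difference between these subfamilies was not tested. The most abundant of the 20 by CPM were Slc35a4 (log2 fold −0.77), Slc35e1 (−0.80) and Slc35e4 (−0.14, not called). Slc35a4 overlaps Apbb3 in the annotation, and the strandedness of counting was not stated in the labels, so reads of the pair may not be separated.

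**Figure D4:**
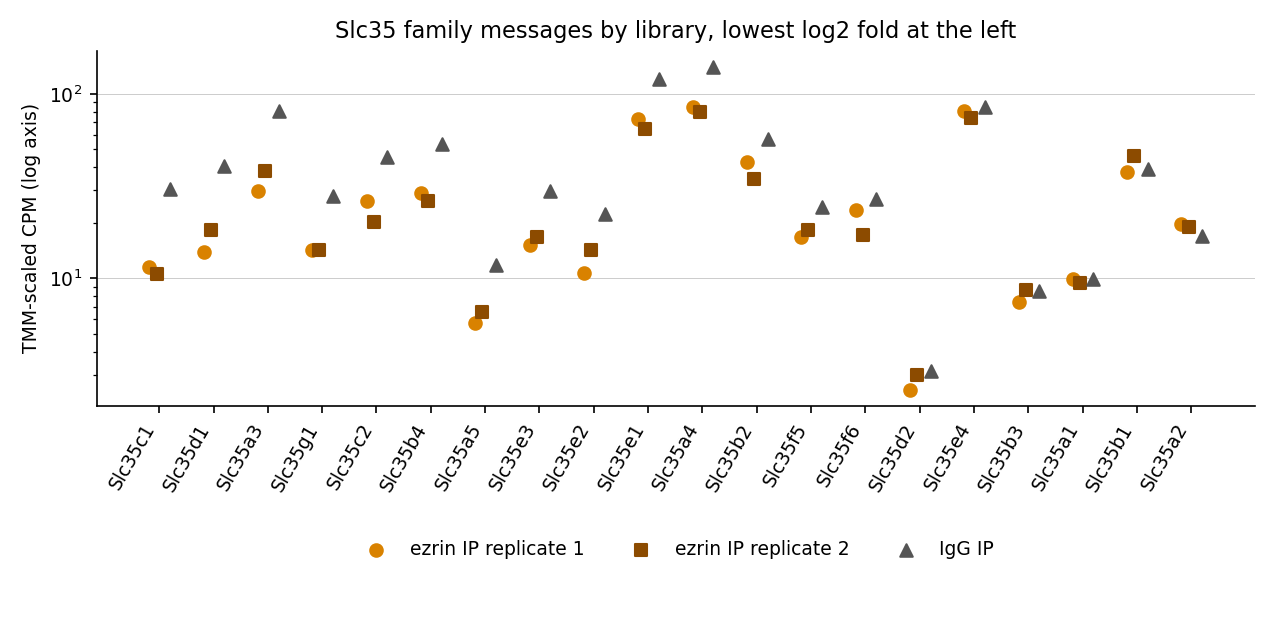
TMM-scaled CPM on a log axis of the 20 Slc35 family messages in ezrin IP libraries 1 (circles) and 2 (squares) and in the IgG IP library (triangles), ordered by log2 fold from −1.47 for Slc35c1 to 0.20 for Slc35a2. The triangle stands above both ezrin IP points in 17 of the 20 genes.

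Among the carriers of inorganic ions, 3 of 6 sodium-proton exchangers were lower, while no cation-chloride cotransporter was called by edgeR. Of 23 genes, 4 were lower (17.4%, the same share as among all genes tested), Slc9a8 and Slc4a7 among them. The median log2 fold was −0.32. With RPKM + 0.1 it was 0.047, against 0.34 for all genes tested. No ion carrier was called higher by edgeR (19.0% of all genes tested), with 0 at an unadjusted p under 0.05. DESeq2 called 0 higher (14.0% of all genes), while limma on RPKM + 0.1 called 1, Slc12a9 (27.0% of all genes). Slc9a8, the Golgi exchanger NHE8, had 12.7 and 12.8 CPM in ezrin IP and 25.9 CPM in IgG IP (log2 fold −1.02, edgeR adjusted p = 0.000601). Across the family 3 Slc9 genes were not called, and all 6 log2 folds of the family were below 0, also with RPKM, with a median of −0.90; each of the 6 had an unadjusted p under 0.05. Slc9a9, 1 of the uncalled ones, differed 2.10-fold between the ezrin IP libraries (118 and 47 counts). Slc4a7, the sodium-bicarbonate cotransporter NBCn1, had a log2 fold of −0.82 and was not called with DESeq2 (adjusted p = 0.101).

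Of the 6 Slc12 cation-chloride cotransporters, 0 were called by edgeR, 0 had an unadjusted p under 0.05 and 0 were called by DESeq2. Among all genes tested edgeR called 19.0% higher and 17.4% lower. The Slc12 median log2 fold was −0.09. It was 0.026 with library size only and 0.27 with RPKM + 0.1, against 0.10 and 0.34 for all genes. With RPKM + 0.1 limma called 1 of them higher, against 27.0% of all genes. Slc12a2, the cotransporter NKCC1 that loads chloride into cells, had 171 and 206 CPM in ezrin IP, against 206 CPM in IgG IP (log2 fold −0.13). Slc4a2, the chloride-bicarbonate exchanger AE2, had 191 and 161 CPM in ezrin IP and 145 CPM in IgG IP (log2 fold 0.28). The phosphate importer Slc20a1 had a log2 fold of −0.025 and the sodium-calcium-potassium exchanger Slc24a3 −0.09.

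Of 10 sugar carriers, 2 were lower (20.0%, against 17.4% of all genes tested). Their median log2 fold was −0.09, which depended on scaling (0.033 with library size only, 0.28 with RPKM + 0.1). For all genes tested these settings gave 0.10 and 0.34. EdgeR called 0 of them higher, also at an unadjusted p under 0.05, as did DESeq2, and limma on RPKM + 0.1 called 1, Slc37a4. The shares of all genes called higher were 19.0%, 14.0% and 27.0% in these fits. Slc2a1, the glucose transporter GLUT1, had 98.3 and 92.0 CPM in ezrin IP, against 75.5 CPM in IgG IP. Its ezrin IP values were both above IgG IP, but edgeR made no call (log2 fold 0.33 with an SE of 0.24, adjusted p = 0.288); with limma on RPKM + 1 it passed (adjusted p = 0.0293). Slc5a3, the myo-inositol transporter, was at 102 and 137 CPM in ezrin IP and 178 CPM in IgG IP (log2 fold −0.58, edgeR adjusted p = 0.0385). Slc5a3 overlaps Mrps6, and DESeq2 did not call it (adjusted p = 0.118). Slc2a9, the urate transporter GLUT9, had a log2 fold of −0.86 and was lower, and Slc45a4 had 0.33. The glucose transporter Slc2a3 fell short of the 50 counts, with 3 and 0 counts in ezrin IP and 0 in IgG IP.

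Of 10 genes in the organic and fatty acid group, 3 were lower (30.0%, against 17.4% of all genes tested), and the median log2 fold was −0.46. EdgeR called 0 higher, also at an unadjusted p under 0.05, as did DESeq2, and limma on RPKM + 1 called 1, Slc33a1. The shares of all genes called higher were 19.0%, 14.0% and 26.8% in these fits. The lower ones were Slc10a3 (−1.48), Slc10a7 (−0.94) and Slc27a3 (−1.10). Of these, Slc27a3 had 45 and 41 counts in ezrin IP and 48 in IgG IP and was not called by DESeq2 (adjusted p = 0.345). The substrates of Slc10a3 and Slc10a7 are not settled, so their place in this group is uncertain. The monocarboxylate transporters for lactate, Slc16a1 (MCT1) and Slc16a3 (MCT4), had log2 folds of −0.17 and −0.45 and were not called. Slc16a1 had 16.1 CPM in each ezrin IP library and 18.1 CPM in IgG IP. Slc33a1, which brings acetyl-CoA into the endoplasmic reticulum, had a log2 fold of 0.41 in edgeR's test, and the fatty acid transport protein Slc27a1 had −0.24.

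Carriers of vitamins, nucleosides, choline, amines and carnitine included the lowest log2 folds, though on few counts. Of 19 genes, 8 were lower (42.1%, against 17.4% of all genes tested), 0 were higher (against 19.0%) and the median was −0.62. At an unadjusted p under 0.05 edgeR had 1 higher. DESeq2 called 0 higher and 1 lower, against 14.0% and 8.82% of all genes. Limma on RPKM + 0.1 called 1 higher and 3 lower, against 27.0% and 6.86% of all genes. Slc29a3, the nucleoside transporter ENT3 of lysosomes, had 63 and 42 counts in ezrin IP and 99 in IgG IP, or 3.14 and 2.50 CPM against 10.3 CPM. It was 3.65-fold lower (log2 fold −1.87, SE 0.37, edgeR adjusted p = 8.51e-06). Slc18a2, a vesicular monoamine transporter, had 13 and 29 counts in ezrin IP and 51 in IgG IP (log2 fold −2.18, edgeR adjusted p = 0.000151). Its ezrin IP libraries differed 2.67-fold in CPM, both lay below IgG IP, and DESeq2 did not call it (adjusted p = 0.077). The proton-coupled folate transporter Slc46a1 had 18 and 11 counts in ezrin IP and 23 in IgG IP (log2 fold −1.61), also without a call by DESeq2 (adjusted p = 0.362).

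The better measured members of this group showed smaller differences. Slc29a1, the plasma membrane nucleoside transporter ENT1, had 54.3 and 41.4 CPM in ezrin IP and 72.1 CPM in IgG IP (log2 fold −0.59, edgeR adjusted p = 0.0428). Slc44a1, which carries choline, had 35.1 and 45.1 CPM in ezrin IP and 61.6 CPM in IgG IP (log2 fold −0.62, edgeR adjusted p = 0.0347). DESeq2 called neither, with adjusted p of 0.146 and 0.145. The reduced folate carrier Slc19a1 was lower (−0.59), a call kept in 3 of 7 count-based alternatives, and the thiamine transporter Slc19a2 was not called (−0.40). Slc22a5, the carnitine transporter OCTN2, was lower (−1.01), a call kept in 3 of 6 count-based alternatives. Its neighbour Slc22a4 had the highest log2 fold of all 127 genes, 1.86, on 33 and 24 counts in ezrin IP and 4 in IgG IP, and was not called (edgeR adjusted p = 0.0788). Slc22a4, Slc22a5 and Slc22a21 are close paralogs, and reads they share were counted by a rule not given in the sources used here, which makes each value uncertain.

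Lower calls were also counted by the membrane where each protein works, beside 17.4% lower and 19.0% higher among all genes tested. At the plasma membrane 17 of 59 were lower (28.8%) and 1 was higher (1.69%), with a median log2 fold of −0.45. In the Golgi and endoplasmic reticulum 8 of 23 were lower (34.8%) and 1 higher (4.35%). The median there was −0.20. With RPKM + 0.1 it was 0.16, against 0.34 for all genes tested. In endosomes, lysosomes and vesicles 5 of 17 were lower (29.4%) and 1 higher (5.88%), with a median of −0.69. Another 9 of 26 genes without a settled location were lower (34.6%). DESeq2 called 5 of 59, 7 of 23, 2 of 17 and 5 of 26 lower in the same order, against 8.82% of all genes. At the plasma membrane its share was near that of all genes. The 2 mitochondrial members, Slc30a9 (0.08) and Slc8b1 (0.39), were not called.

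Messages of proteins that pair with or regulate solute carriers did not share the low median. Of 24 such partners, 21 were tested, 3 were higher (14.3%, against 19.0% of all genes tested) and 2 were lower (9.52%, against 17.4%). Their median log2 fold was 0.14, which was −0.067 with cyclic loess. The partners were also more abundant, with a median level of 89.3 CPM against 21.5 CPM for the solute carriers. In the highest class by level the median of all genes was 0.21. The part of level in this difference was not tested. Stk39, the kinase SPAK that phosphorylates Slc12 cotransporters, was higher (0.87, edgeR adjusted p = 0.00558), and so was Nfe2l2, the transcription factor Nrf2 that is known to induce Slc7a11 (1.18, edgeR adjusted p = 4.67e-05). Chp1, a cofactor of sodium-proton exchangers, was lower (−0.80, edgeR adjusted p = 0.00294), and Lamtor1, a lysosomal anchor of amino acid signalling, was lower (−1.01). The scaffold Slc9a3r1 (0.15), the lactate transporter chaperone Bsg (0.21) and Atf4 (0.14) were not called.

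At the same count minimum, 30.7% of the solute carriers were lower and 2.36% higher. Of 35 mitochondrial Slc25 carriers, 10 were lower (28.6%) and 9 higher (25.7%), with a median log2 fold of −0.11. Of 136 numbered transmembrane protein genes, 29 were lower (21.3%) and 8 higher (5.88%), with a median of −0.28. The difference between these families and the 127 solute carriers was not tested. In the annotation 54 of the 127 solute carriers, 18 of them called, overlap another gene. The message of ezrin itself, Ezr, had 7003 and 5879 counts in ezrin IP and 1479 in IgG IP, and the counts do not separate transgene from gene.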

How the data were processed

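For each library the authors deposited unnormalized gene counts and RPKM, which divide a count by gene length and a read total. The build was GRCm38, per the submitters' processing notes; the aligner, the counter and its strand and multi-mapping rules were not given in the sources used here. The labels name both ribosomal RNA depletion and polyA RNA, which was not settled. Deposited counts were tested with edgeR 4.0.16 in R 4.3.3 (quasi-likelihood test, TMM, default filterByExpr, Benjamini-Hochberg adjustment), with DESeq2 1.42.0 and limma 3.58.1 on log2 of the deposited RPKM as alternatives. Standard errors are the log2 fold over the square root of F. Scripts were tested on simulated data. Members, substrate groups and lists were chosen with earlier results of these data known. Named genes were, in each substrate group, the 3 most abundant and the 3 highest and 3 lowest called log2 folds where the ezrin libraries both lay above or both below IgG, and besides these 18 preset genes, called partners and genes nearest the count minimum; further genes illustrate a group and were chosen after their values were seen. Coordinates and promoter windows are from RefSeq, GRCm38.p6. A few named genes are not reported here.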

Additional observations from a re-analysis of the deposited data

How the results depend on the processing

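The number of solute carriers called lower, 39 in the reported test, was 19 with DESeq2, 24 with library size as the only scaling and 49 with upper quartile scaling. Among all genes these settings called 8.82%, 14.1% and 21.0% lower. The number of solute carriers called lower was 7 with limma on log2(RPKM + 0.1) and 4 on log2(RPKM + 1). Both limma counts were smaller shares than among all genes, where 6.86% and 4.42% were lower. The number called higher, 3 in the reported test, was 1 with upper quartile scaling and 7 and 11 with RPKM + 0.1 and + 1. It was 0 of 87 by edgeR at a mean of at least 10 CPM, where 2 had an unadjusted p under 0.05. Among all genes these settings called 16.0%, 27.0%, 26.8% and 21.4% higher, in the same order. The median log2 fold, −0.45, was −0.062 with RPKM + 0.1 and −0.031 with RPKM + 1, against 0.34 and 0.22 for all genes. With 1 ezrin library left out the solute carrier medians were −0.38 and −0.36. The other count-based settings (DESeq2 size factors, cyclic loess, no filter) gave 2 or 3 higher and 26 to 35 lower. In that order they called 19.2%, 16.8% and 15.0% of all genes higher and 16.9%, 18.0% and 10.8% lower. In all count-based settings in which they were tested, 19 of the 39 lower calls and 0 of the 3 higher calls were kept. Of 53 named genes, none turned direction where it was called in either fit, and 23 of 468 tests turned sign where it was called in neither. With an ezrin library left out, log2 ratios (1 CPM added) were −1.19 for Slc18a2 and −0.34 for Slc5a3 without replicate 1. Without replicate 2 they were −0.80 for Slc43a2, −0.84 for Slc46a1 and −0.77 for Lamtor1. The added 1 CPM shrinks the ratios of genes near 1 CPM, such as Slc43a2 and Slc46a1. These ratios are therefore not on the same scale as edgeR's log2 folds. A single IgG library limits every comparison, and 20 of the 127 solute carriers had a summed count under 150. No paired analysis was possible because the groups share only replicate number 1.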
